A study of Nothobranchius furzeri with 42 samples.

Results

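The genes described here are expressed in heart, liver, spleen and kidney of the African turquoise killifish but have their lowest level in skeletal muscle. They were chosen by measured levels. Levels are in CPM, the counts divided by the library total, itself corrected by a TMM factor, and brought to the same scale in all libraries. They were averaged within each treatment arm, and a gene's level in a tissue is the mean of its 2 arm means. Of 25475 genes in the count table, 8511 had a level of at least 5 CPM in each of heart, liver, spleen and kidney. From these, the 150 genes with the largest ratio of their lowest level among those 4 tissues to their muscle level (plus 0.1 CPM) were taken. The ratio is therefore a description of the choice and is given without a test.

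The fish were females of the GRZ strain, a short-lived inbred strain, kept at 28 °C. Alendronate was added to the tank water at 10 µM from 16 weeks of age for 3 weeks, and placebo fish received the same volume of distilled water, so all fish were 19 weeks old at sampling. RNA was sequenced from 9 fish, 5 with alendronate and 4 with placebo, taking the letter and number in a library's title to mark 1 fish. The alendronate arm had 5 libraries of every tissue. The placebo arm had 4 each of heart, liver and muscle of the caudal fin, with 3 of spleen and 2 of kidney. The RNA came from tissue and not from sorted cells, so fewer cells of a type and less RNA per cell cannot be told apart in any value below. No source used here says whether fish shared a tank, and p-values measure the spread between these fish.

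Skeletal muscle consists mainly of multinucleate fibres, whose RNA is dominated by transcripts for contractile proteins, calcium handling and glycolysis. Heart muscle shares the contractile programme but also holds many endothelial and blood cells. The liver makes plasma proteins and carries out much of the intermediary metabolism, while the spleen and the kidney of bony fish are blood-forming and immune organs, the kidney also holding the nephrons. Alendronate is a bisphosphonate used against bone loss, taken up with bone mineral by osteoclasts, where it blocks the mevalonate pathway at farnesyl diphosphate synthase. The deposited table names genes by Ensembl ID only, and 0 of its 25475 IDs matched the gene table at hand, so the genes below are named by ID and no role is given for any of them.

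Library totals ran from 20485992 to 35717250 counts. The closest library to each of the 42 was from the same labelled tissue (median Pearson r across 16355 genes 0.952 within tissues and 0.592 between tissues). Tissue markers could not be looked up without gene names. As a stand-in, genes at 5 CPM or more in 1 tissue and at least 10-fold above every other tissue were summed, leaving out the 150 genes. These genes were picked in the same labelled libraries, so a high share in their own tissue restates the picking. The 402 muscle-enriched genes took 42.7% of the counts of muscle libraries. The 482 liver-enriched genes took 66.4% of those of liver libraries, in this value with the 6 of them that belong to the 150. Some libraries stood apart. In spleen, liver-enriched genes took 9.62% of the counts in alendronate fish 1 and 6.29% in alendronate fish 3, against 0.457 to 2.2% in the other 6 spleen libraries. In kidney, kidney-enriched genes took 2.15% of the counts in alendronate fish 1, against 3.45 to 5.65% in the other 6 libraries.

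The ratio of the lowest of the 4 tissue levels to the muscle level had a median of 3.7 over the 150 genes and ran from 2.97 to 10.5. Over the 8511 genes it had a median of 0.756, 2698 of them (31.7%) were above 1 and 500 were above 2. The last genes inside the limit were ENSNFUG00015018409 with a ratio of 2.98 and ENSNFUG00015003580 with 2.97. The first outside it were ENSNFUG00015007618 with 2.96 and ENSNFUG00015007655 with 2.959, so the limit cuts a continuous range.

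The 150 genes were low but measurable in muscle. Their median level was 23 CPM in heart, 36 CPM in liver, 36.6 CPM in spleen and 29 CPM in kidney, and 4.2 CPM in muscle. The same medians over the 8511 genes were 24.7, 22.2, 23.4 and 22.1 CPM, and 21.7 CPM in muscle, so the gap lay in muscle, as the rule requires. The muscle level was at least 1 CPM in 148 of the 150 genes and at least 5 CPM in 62. Only 2 of the 1350 muscle values (150 genes in 9 libraries) were counts of 0. CPM is not corrected for transcript length, so levels are compared between tissues within a gene and not between genes.

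**Figure D1:**
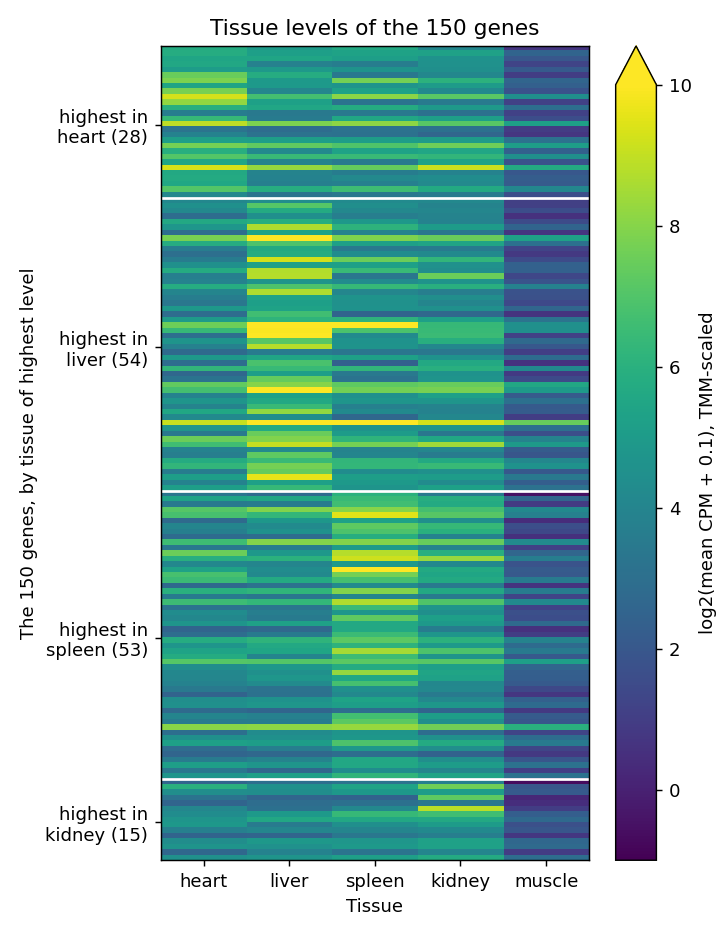
Each line is 1 of the 150 genes and each column a tissue; colour gives log2 of the mean CPM plus 0.1 on TMM-scaled values, and genes are grouped by the tissue of their highest level (28 heart, 54 liver, 53 spleen and 15 kidney). The muscle column is the darkest for every gene, while the bright column moves from heart to liver, spleen and kidney down the plot.

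The libraries of each fish entered the means that chose the genes, so values within a fish only describe how evenly the choice was met. Muscle was the lowest of the sampled tissues for 147, 148, 149, 149 and 149 of the 150 genes in alendronate fish 1 to 5, and for 148, 146, 149 and 150 in placebo fish 1 to 4. Among the 8511 genes this share was 26.8 to 41.5% per fish. When the same rule was applied to the alendronate libraries alone, 121 of the 150 genes it gave were among those described here. Read in the placebo libraries, all 150 had a ratio above 1 and 136 had one above 2, with a median of 3.54. Of the genes eligible in the alendronate libraries, 31.7% were above 1 there and 5.98% above 2. A choice made in placebo libraries gave 117 of the genes described here. Read in alendronate libraries, its 150 genes were all above 1 and 138 were above 2, with a median of 3.37. Of the genes eligible in the placebo libraries, 31.9% were above 1 there and 6.15% above 2. The lists from the separate arms shared 92 genes.

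The summed counts of the 150 genes give their weight in each library, in libraries that also chose the genes. They made up 1.2 ± 0.33% of counts in alendronate hearts and 1.22 ± 0.23% in placebo hearts (SD, n = 5 and 4). In liver they made up 1.57 ± 0.227% with alendronate and 1.42 ± 0.101% with placebo (SD, n = 5 and 4). In spleen the share was 2.6 ± 1.05% with alendronate and 2.64 ± 0.85% with placebo (SD, n = 5 and 3). Spleen had the highest mean share of the tissues in both arms. In kidney the share was 1.78 ± 0.852% with alendronate and 1.4 ± 0.12% with placebo (SD, n = 5 and 2). In muscle it was 0.103 ± 0.0659% with alendronate and 0.085 ± 0.0253% with placebo (SD, n = 5 and 4). The highest muscle share, 0.22% in alendronate fish 1 (95% Wilson interval 0.218 to 0.222%), was below the lowest share in any other tissue, 0.889% in the heart of alendronate fish 2 (0.885 to 0.893%), which restates the choice of genes. The intervals cover counting error within 1 library and not the spread between fish. The reads carry no molecular identifiers, so repeated copies count as separate reads and the intervals may be too narrow.

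**Figure D2:**
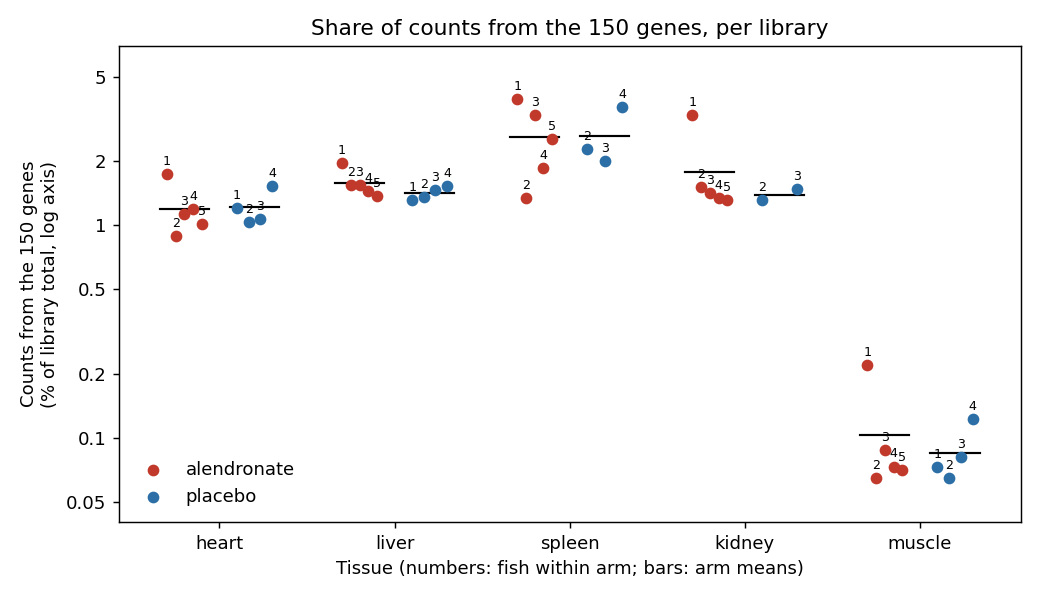
Share of library counts from the 150 genes (percent, log axis) by tissue, with 1 point per library numbered by fish within its arm and a bar at the arm mean. Muscle libraries lie between 0.0646 and 0.22%, below all others, and alendronate fish 1 is the highest point of its arm in every tissue.

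The genes with the largest ratios differed in where they were high. ENSNFUG00015000134, the first by ratio (10.5), reached 24.7, 70.7, 53.3, 82.6 and 112 CPM in spleens of alendronate fish 1 to 5 and 80.2, 69 and 40.3 CPM in spleens of placebo fish 2 to 4. Its muscle values were 0.504, 0.517, 0.472, 0.674 and 0.854 CPM with alendronate and 0.214, 1.4, 0.317 and 0.484 CPM with placebo. This gene was thus a spleen-high gene with a low level in every muscle library, and the arms overlapped in both tissues. ENSNFUG00015018331, the second by ratio (10.3), was highest in heart, at 1.71, 25.6, 24.5, 81.2 and 74.4 CPM with alendronate and 64.7, 85.4, 58.6 and 63.9 CPM with placebo. The heart of alendronate fish 1 stood apart, at a level close to that in muscle, where the gene ranged from 0.861 to 1.42 CPM with alendronate and from 0.678 to 3.78 CPM with placebo. ENSNFUG00015005102, the fourth (7.84), had nearly equal levels of 16.8, 20.7, 19.2 and 17.3 CPM in heart, liver, spleen and kidney, against 2.04 CPM in muscle.

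ENSNFUG00015022718, the third by ratio (9.53), had the lowest muscle level of the 150 genes. Its muscle values were 0.403, 0.459, 0.42, 0.449 and 0.213 CPM with alendronate and 0.926, 0.765, 0.792 and 0.0968 CPM with placebo, from 2 to 17 counts per library. It was 1 of 4 genes with too few muscle counts for the treatment test there. The other three, ENSNFUG00015013764, ENSNFUG00015014191 and ENSNFUG00015009109, had at most 190, 300 and 295 counts in a muscle library, each time in alendronate fish 1, and at least 1, 1 and 0. The gene was at 5.88 CPM in heart, 7.68 CPM in liver, 9.03 CPM in spleen and 13.4 CPM in kidney.

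Levels of most of these genes were uneven across the 4 organs. The highest of the 4 levels was 3.35-fold the lowest at the median gene, against 2.09-fold over the 8511 genes. A range under 2-fold was found for 38 of the 150 genes (25.3%), against 46.7% of the 8511. At the upper quartile the range was 8.83-fold, against 3.49-fold over the 8511 genes, and 30 of the 150 had a range over 10-fold. The most even gene was ENSNFUG00015017611, with a 1.14-fold range. Its alendronate libraries held 120 to 169 CPM in heart, 109 to 179 CPM in liver, 97.4 to 172 CPM in spleen and 116 to 202 CPM in kidney. Its placebo libraries held 118 to 151 CPM in heart, 103 to 148 CPM in liver, 122 to 215 CPM in spleen and 128 to 132 CPM in kidney. Muscle held 27.9 to 35.1 CPM of it with alendronate and 33.9 to 53.6 CPM with placebo, so no muscle library reached the range of another tissue.

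By tissue of highest level, 54 genes were highest in liver, 53 in spleen, 28 in heart and 15 in kidney. As shares these were 36%, 35.3%, 18.7% and 10%, against 32.1%, 24.2%, 33% and 10.7% of the 8511 genes. This split depends on scaling: with library totals alone, without TMM factors, 18 were highest in liver, 76 in spleen, 19 in heart and 37 in kidney. Under RLE scaling the counts were 60, 51, 24 and 15. All 150 genes were lower in muscle than in each of the 4 tissues under TMM, RLE and library totals alone. The genes had been chosen for this in the same libraries. Muscle factors were also below those of heart, spleen and kidney, so leaving them out lowers muscle against these 3 tissues.

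The 54 liver-high genes were at least 2-fold above the second tissue in 29 cases and at least 10-fold in 6. The extreme was ENSNFUG00015011184, which by level in liver was 64.2-fold above its second tissue. Its liver values were 7726, 18390, 11970, 11720 and 12170 CPM with alendronate and 16810, 16300, 15530 and 12370 CPM with placebo. In muscle the gene stood at 12.7 to 73.2 CPM in alendronate muscles and 6.71 to 87.7 CPM in placebo muscles. The highest muscle value, 87.7 CPM, was in placebo fish 1, in whose muscle library liver-enriched genes took 0.159% of counts. The highest alendronate muscle value, 73.2 CPM, was in fish 3, where they took 0.454%, against 0.105 to 0.192% in all other muscle libraries. The part of liver RNA in the non-liver values of this gene was not tested.

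The 53 spleen-high genes exceeded the second tissue by at least 2-fold in 20 cases. ENSNFUG00015004212 was the farthest above it, by 24.9-fold. Its spleen values were 1215, 1113, 1358, 1060 and 1492 CPM with alendronate and 1048, 1581 and 1371 CPM with placebo. The spleen levels were close in the 2 arms and overlapped. In muscle it stood at 18.1 CPM in alendronate fish 1 and at 1.23 to 3.15 CPM in the other alendronate fish, against 1.85 to 6.97 CPM with placebo.

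Among the 28 heart-high genes, 8 were at least 2-fold above the second tissue and none was 10-fold above it. ENSNFUG00015018064 was the most heart-high, at 241, 262, 273, 304 and 284 CPM with alendronate and 377, 308, 355 and 266 CPM with placebo. It was low in muscle, the other striated tissue, at 1.11 to 2.81 CPM with alendronate and 1.53 to 3.78 CPM with placebo. Of the 15 kidney-high genes, 3 were 2-fold and 2 were 10-fold above the second tissue. ENSNFUG00015024831 led these, at 273, 720, 239, 610 and 389 CPM in alendronate kidneys and 445 and 505 CPM in placebo kidneys.

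In CPM, which favours long transcripts, the genes with the highest minimum over the 4 organs were ENSNFUG00015002592, ENSNFUG00015012496 and ENSNFUG00015017752. The first 2 of these also had the highest CPM in muscle. ENSNFUG00015002592 stood at 1836, 144, 1019, 200 and 461 CPM in alendronate hearts and at 250, 145, 178 and 872 CPM in placebo hearts. In muscle it stood at 917, 47.9, 124, 31.3 and 79.3 CPM with alendronate and at 39, 55.8, 121 and 217 CPM with placebo. Fish 1 was the highest alendronate fish and fish 4 the highest placebo fish in both tissues. ENSNFUG00015012496 was steadier, with 39.1 to 101 CPM in alendronate muscles and 48.2 to 81.8 CPM in placebo muscles. ENSNFUG00015017752, a liver-high gene, stood at 30.6 to 50.3 CPM in alendronate muscles and 24.9 to 55.6 CPM in placebo muscles.

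The same individual fish carried high levels of these genes in several organs. In alendronate fish 1, 21 of the 150 genes in heart, 26 in liver, 50 in spleen, 52 in kidney and 36 in muscle were at least 2-fold above the median of the other libraries of that tissue. These are 14, 17.3, 33.3, 34.7 and 24% of the 150 genes, against 2.44, 4.55, 7.07, 7.17 and 2.89% of the 8511 genes. In placebo fish 4 the counts were 24 in heart, 23 in liver, 44 in spleen and 19 in muscle, or 16, 15.3, 29.3 and 12.7%, against 3.21, 3.48, 4.29 and 3.43% of the 8511. Alendronate fish 3 came next, with 22 in heart, 16 in liver, 28 in spleen, 19 in kidney and 9 in muscle. These are 14.7, 10.7, 18.7, 12.7 and 6%, against 1.92, 1.03, 2.43, 1.14 and 0.505% of the 8511. In its heart, 12 of the 150 genes (8%) were at least 2-fold below the median, against 5.37% of the 8511. High fish were therefore found in both arms. Low values occurred too. In alendronate fish 2, 15.3% of the 150 genes in heart, 10.7% in liver, 22.7% in spleen, 5.33% in kidney and 12% in muscle were 2-fold below. Among the 8511 genes these shares were 1.42, 4.95, 2.8, 0.811 and 1.1%. In placebo fish 2 it was 11.3% in heart and 10.7% in spleen, against 0.987 and 1.15%, and less in its other tissues.

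**Figure D3:**
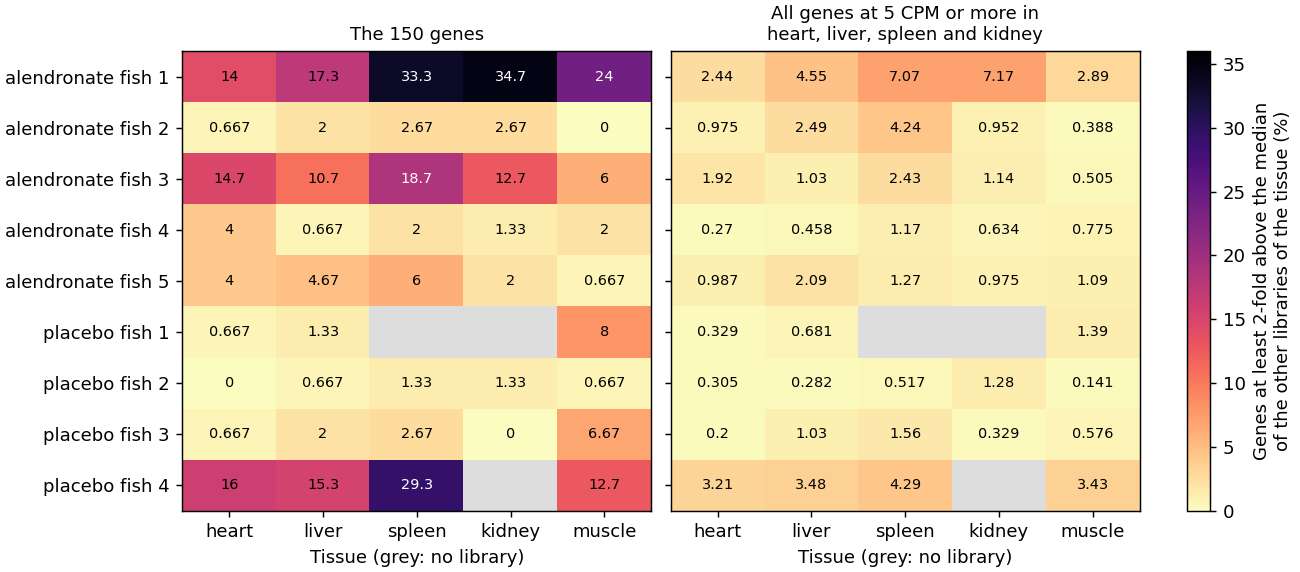
Percent of genes at least 2-fold above the median of the other libraries of the tissue, by fish (lines) and tissue (columns), for the 150 genes on the left and for the 8511 genes at 5 CPM or more in the 4 tissues on the right; grey marks a tissue with no library. Alendronate fish 1 and 3 and placebo fish 4 stand out on the left, with up to 34.7%, and no square on the right exceeds 7.17%.

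In alendronate fish 1, 17 of the 150 genes (11.3%) were at least 2-fold up in all 5 tissues, against 0.963% of the 8511 genes. In placebo fish 4, 8 genes (5.33%) were at least 2-fold up in all 4 of its tissues, against 0.764%. In alendronate fish 3 it was 4 genes (2.67%), against 0.094%. Of the 8 genes of placebo fish 4, 7 belonged to the 17 of alendronate fish 1 (87.5% of the 8 and 41.2% of the 17). All 4 genes of alendronate fish 3 belonged to them too (100% of the 4 and 23.5% of the 17). These sets were picked after their values were seen and are a description of the fish, with no test. The same fish also entered the choice of the 150 genes. Without alendronate fish 1 and placebo fish 4, 13 of the 17 genes kept 5 CPM in all 4 tissues and 10 were chosen again. The shares and overlaps above therefore restate that choice in part.

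The 17 genes were highest in spleen for 15, in liver for 1 and in heart for 1. In alendronate fish 1 their median log2 difference to the median of the other libraries was 2.6 in heart, 3.47 in liver, 2.14 in spleen, 3.47 in kidney and 3.17 in muscle. These differences restate how the 17 genes were picked. Placebo fish 4 was the highest placebo fish for all 17 in heart, liver and spleen and for 14 in muscle. For the other 133 genes this share was 27.1, 24.8, 58.6 and 31.6%. Among the alendronate fish other than fish 1, fish 3 was highest for 17 of the 17 in heart, liver and kidney, for 16 in spleen and for 9 in muscle. For the other 133 genes fish 3 was highest in 40.6, 41.4, 26.3, 61.7 and 30.8%. Placebo fish 4 and alendronate fish 3 also entered the choice of genes, so these comparisons may restate that choice in part. Without alendronate fish 1 and placebo fish 4, 13 of the 17 genes kept 5 CPM in each of heart, liver, spleen and kidney.

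**Figure D4:**
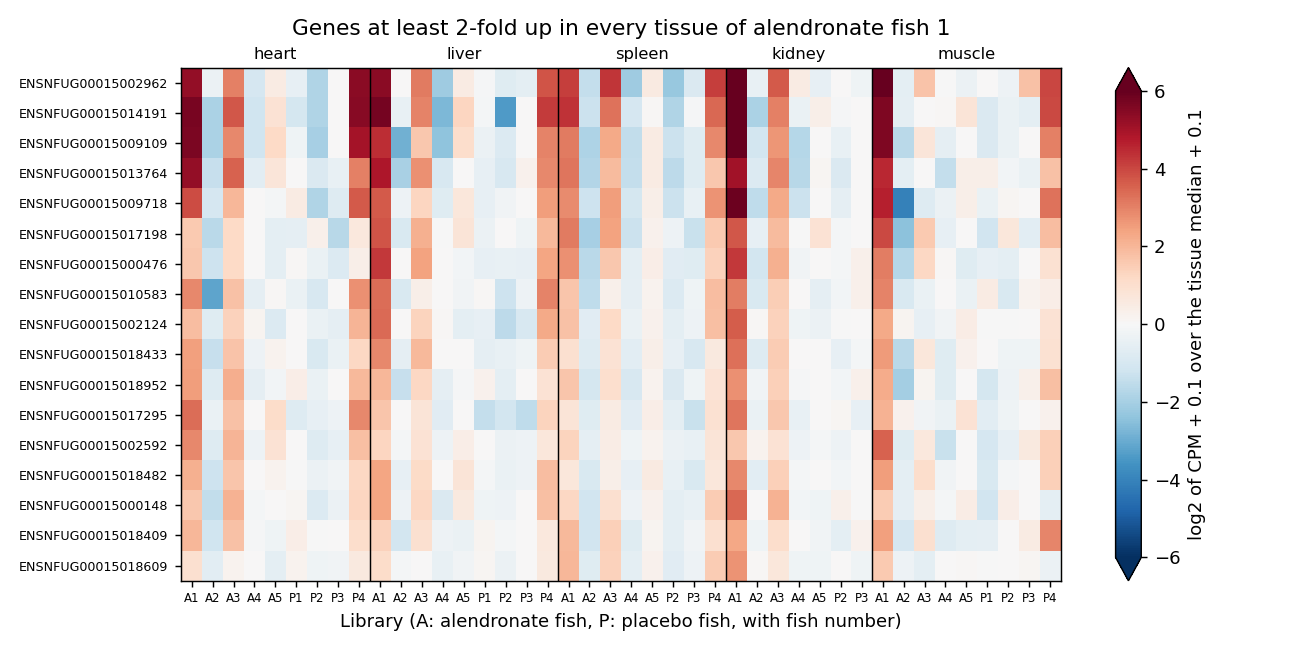
Log2 of CPM + 0.1 over the tissue median + 0.1, for the 17 genes at least 2-fold up in every tissue of alendronate fish 1 (lines) in all 42 libraries (columns; A alendronate, P placebo, with the fish number). Red columns recur for A1 in all 5 tissues, for A3 more weakly, and for P4 in heart, liver, spleen and muscle.

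ENSNFUG00015002962, chosen after its values were seen because it was the only gene in all 3 sets, shows the pattern in full. Its kidney values were 2788, 14.9, 262, 28.8 and 14.8 CPM in alendronate fish 1 to 5 and 20.7 and 17.4 CPM in placebo fish 2 and 3. In liver they were 381, 8.82, 76.7, 1.96 and 12.3 CPM with alendronate and 8.34, 5.36, 5.85 and 120 CPM in placebo fish 1 to 4. Alendronate fish 1 and 3 and placebo fish 4 were thus the high fish in these organs, where sampled. Heart held 218, 4.27, 45.9, 2.66 and 7.91 CPM with alendronate and 3.86, 1.49, 5.51 and 240 CPM with placebo. Spleen held 1451, 30.1, 1600, 18.3 and 117 CPM with alendronate and 16.5, 44.9 and 1424 CPM in placebo fish 2 to 4. Muscle held 103, 0.402, 2.31, 0.618 and 0.48 CPM with alendronate and 0.641, 0.495, 2.38 and 11.9 CPM with placebo. In muscle alendronate fish 1 and placebo fish 4 were again the highest of their arms, and the arms overlapped in every tissue.

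The 17 genes were picked for being high in every tissue of alendronate fish 1, so their higher counts in that fish restate the picking. They took 0.106% of counts in its muscle, against 0.00392 to 0.0277% in the other 8 muscle libraries, and 1.53% of counts in its kidney, against 0.118 to 0.346% in the other 6. The other 133 genes took 0.114% of counts in its muscle, against 0.0591 to 0.0939%, and 1.77% in its kidney, against 1.08 to 1.38%. Liver-enriched genes were also high in the spleens of fish 1 and 3 but not in that of placebo fish 4, where they took 0.879% of counts. Their part in the spleen values was not tested. Spleen-enriched genes took 0.0213% of heart counts for alendronate fish 1 and 0.024% for placebo fish 4, where no other heart exceeded 0.0126%. Their liver shares were 0.00972 and 0.00654% for these fish, and no other liver exceeded 0.00534%. Alendronate fish 3 was not high in either organ, at 0.00998 and 0.0043%. Kidney did not follow this, with 0.0534% for alendronate fish 1 and 0.0552% for alendronate fish 3. The part of spleen-enriched genes was not tested either.

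These fish bore on the choice of genes in part. Without alendronate fish 1 and placebo fish 4, 144 of the 150 genes kept a level of 5 CPM in all 4 tissues and 128 were chosen again. All 150 still had a ratio above 1, and 148 had one above 2, with a median of 3.62. Of the 17 genes, 13 kept 5 CPM and 10 were chosen again.

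The comparison of the arms asked whether alendronate changed these genes outside bone. The rule weights both arm means alike and did not choose by their difference, but it used the same libraries. Without the 2 high fish left out above, 6 of the genes no longer reached 5 CPM in each of heart, liver, spleen and kidney. The comparison is therefore not fully independent of the choice. Each tissue was tested by itself with edgeR's quasi-likelihood test, and p-values were adjusted by the Benjamini-Hochberg method over all genes of that tissue. None of the 150 genes passed an adjusted p of 0.05 in heart, liver, spleen or kidney, where 150 were tested, or in muscle, where 146 were. DESeq2 and limma-voom also gave 0 in each of the 5 tissues. Over all genes tested, the share at an adjusted p under 0.05 was 0% in heart, liver, spleen and kidney and 0.00641% in muscle by edgeR. Of the whole table DESeq2 called 0 genes in heart, 1 in liver, 9 in spleen, 2 in kidney and 2 in muscle, and limma-voom called 1 in muscle and 0 elsewhere. By edgeR the smallest adjusted p among the 150 genes was 0.99 in heart, 0.914 in liver, 1 in spleen, 1 in kidney and 0.664 in muscle.

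At an unadjusted p under 0.05 by edgeR, muscle had 4 of these genes higher and 4 lower with alendronate (2.74 and 2.74%). Of all genes there, 3.27 and 4.14% were called higher and lower. Heart had 1 higher and 4 lower (0.667 and 2.67%), beside 1.43 and 1.2% of all genes. Liver had 0 higher and 4 lower (0 and 2.67%), beside 2.2 and 2.18%. Spleen had 0 higher and 1 lower (0 and 0.667%), beside 0.399 and 1.23%. Kidney had 1 higher and 0 lower (0.667 and 0%), beside 1.27 and 0.436%. As shares of the genes tested these were at most 2.74% in either direction. At this level DESeq2 named 5, 5, 2, 4 and 10 of the genes in heart, liver, spleen, kidney and muscle (3.33, 3.36, 1.33, 2.74 and 7.04%), beside 2.44, 3.72, 2.67, 2.93 and 6.64% of all genes. DESeq2 was run without the expression filter, over 22688 to 23936 genes per tissue, against 15167 to 19282 by edgeR. The shares of all genes therefore have unlike bases.

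Several of these genes were already described for other reasons. The 4 lower in muscle were ENSNFUG00015003580, ENSNFUG00015000417, ENSNFUG00015024831 and ENSNFUG00015017611, the most even gene (log2 change -0.4, SE 0.169, adjusted p 0.664 by edgeR). The 4 higher in muscle were ENSNFUG00015005455, ENSNFUG00015003312, ENSNFUG00015014253 and ENSNFUG00015016026. Heart had ENSNFUG00015022994 higher and ENSNFUG00015017305, ENSNFUG00015000417, ENSNFUG00015007822 and ENSNFUG00015013246 lower. Liver had ENSNFUG00015015168, ENSNFUG00015004247, ENSNFUG00015005732 and ENSNFUG00015005500 lower, spleen had ENSNFUG00015025418 lower and kidney had ENSNFUG00015012831 higher. None of these genes passed the adjusted threshold, and those in this paragraph without values here or elsewhere were named after their values were seen, to account for each count.

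In muscle the smallest p among genes higher with alendronate belonged to ENSNFUG00015005455, at 8.77, 8.09, 9.29, 11 and 9.82 CPM with alendronate against 3.99, 4.1, 7.97 and 4.89 CPM with placebo. Every alendronate muscle was above every placebo muscle, with a log2 change of 0.83 (SE 0.231, adjusted p 0.664 by edgeR). It was the only one of the 146 genes whose muscle values were all higher with alendronate, where 1.24% of all genes were. The smallest p among genes lower with alendronate belonged to ENSNFUG00015003580, at 7.15, 7.75, 6.14, 6.8 and 7.52 CPM with alendronate against 9.54, 9.32, 8.55 and 13.7 CPM with placebo. The arms did not overlap, and the log2 change was -0.56 (SE 0.193, adjusted p 0.664 by edgeR). One further gene had no overlap in this direction, ENSNFUG00015000417, named after its values were seen, where 1.14% of all genes did. It stood at 6.7, 5.68, 6.14, 5.5 and 4.85 CPM with alendronate and at 14.3, 6.75, 7.34 and 8.18 CPM with placebo. In heart ENSNFUG00015000417 stood at 14.2, 21.5, 20.9, 17.2 and 23.8 CPM with alendronate and at 22.5, 30.9, 24.8 and 26.1 CPM with placebo, lower on average (log2 change -0.43, SE 0.164) but with 1 alendronate heart inside the placebo range. Its adjusted p by edgeR was 0.664 in muscle and 0.99 in heart, and heart and muscle came from the same fish.

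In the other tissues the smallest p among genes higher with alendronate was that of ENSNFUG00015022994 in heart, at 9.06, 11.2, 10.9, 5.69 and 23.9 CPM with alendronate and 6.15, 8.46, 3.82 and 5.23 CPM with placebo. The arms overlapped in this kidney-high gene (log2 change 1.03, SE 0.381, adjusted p 0.99 by edgeR). The smallest p among genes lower with alendronate was that of ENSNFUG00015015168 in liver, at 26.8, 35.6, 31.9, 30.7 and 21.6 CPM with alendronate and 44.3, 46.2, 38.2 and 38.8 CPM with placebo. These arms did not overlap (log2 change -0.47, SE 0.158, adjusted p 0.914 by edgeR).

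Non-overlap of the arms outside muscle was found in the following genes. In heart 0 genes had all alendronate values above placebo and 2 (1.33%) had all below, where 0.513 and 0.482% of all genes did. The 2 were ENSNFUG00015017305 and ENSNFUG00015004779. In liver the counts were 0 above and 3 (2%) below, where 0.607 and 0.943% did. Beside ENSNFUG00015015168 these were ENSNFUG00015005500 and ENSNFUG00015003312. Spleen had 0 above and 1 (0.667%) below, ENSNFUG00015014418, where 0.376 and 0.901% did. Kidney, with 2 placebo libraries, had 4 (2.67%) above and 0 below, where 2.8 and 2.84% did. The 4 kidney genes were ENSNFUG00015000134, ENSNFUG00015017128, ENSNFUG00015012317 and ENSNFUG00015018690. All but ENSNFUG00015000134, which the ratio named, and ENSNFUG00015015168 were named after their values were seen.

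With all fish included, fitted changes of the 150 genes centred near 0, less closely in kidney. Their median log2 change with alendronate was -0.0079 in heart, 0.008 in liver, 0.00091 in spleen, 0.15 in kidney and 0.023 in muscle. Over all genes tested the medians were -0.0014, 0.043, 0.017, 0.045 and -0.0038. Kidney was the tissue with the most genes on 1 side, 113 of 150 (75.3%) above 0, against 56.3% of all genes there. That lean rested on alendronate fish 1: without its kidney, 82 of 150 (54.7%) were above 0 and the median was 0.019, against 51.5% and 0.013 over all genes. In muscle 77 of 146 genes were above 0, and without fish 1 it was 49 (33.6%), with a median of -0.17, against 48.3% and -0.012 over all genes. Heart, liver and spleen had medians of -0.096, -0.068 and -0.14 without this fish, against -0.0093, 0.024 and 0.0013 over all genes. In these tissues 37.3, 40.7 and 32% of the 150 genes were then above 0, against 48.5, 52.7 and 50.2% of all genes. In spleen, leaving out alendronate fish 1 and 3 gave a median of -0.36. Without placebo fish 4 and alendronate fish 1 together, medians were 0.0039 in heart, 0.0036 in liver, 0.15 in spleen and -0.061 in muscle. Kidney kept the 0.019 given above, since placebo fish 4 had no kidney library. In these fits 0 of the genes were at an adjusted p under 0.05.

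**Figure D5:**
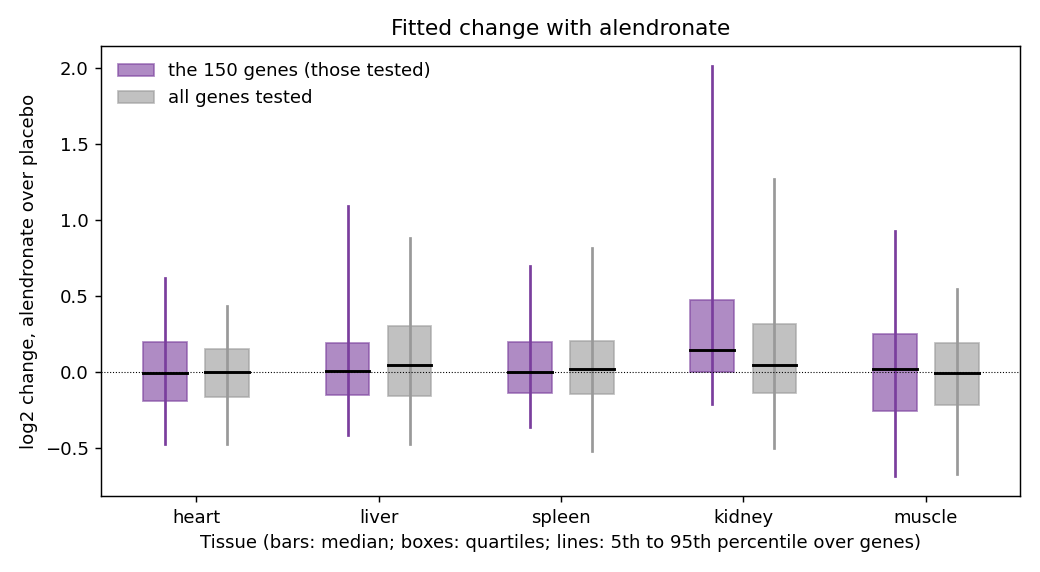
Log2 change with alendronate over placebo in each tissue, for the genes of the 150 that were tested (purple) and for all genes tested (grey); boxes span the quartiles, black bars mark medians and lines run from the 5th to the 95th percentile over genes. The boxes straddle 0 in heart, liver, spleen and muscle, and the purple kidney box starts at 0, with a median of 0.15.

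The precision of these fits limits what could be seen. The 95% interval of the change lay within 2-fold in both directions for 71.3% of the genes in heart, 70% in liver, 48.7% in spleen, 44% in kidney and 53.4% in muscle. Over all genes tested these shares were 74.7, 60.4, 54.6, 48 and 69.5%, so a smaller share of the 150 genes met this limit in muscle and a larger one in liver. Whether an interval meets it depends on the fitted change as well as on the width. The median biological coefficient of variation of the 150 genes was 26.7% in heart, 29.5% in liver, 39.7% in spleen, 37% in kidney and 34.4% in muscle. Over all genes tested it was 25.8, 31.3, 35.6, 35.4 and 26.7%. Over those of the 8511 genes that were tested it was 20.9, 26.1, 29.3, 27.3 and 22.8%. These last medians were below those of the 150 genes in every tissue. Against both sets the largest gap was in muscle, and against the 8511 genes spleen and kidney came next. For the remaining genes of the 150 that were tested in each tissue, the interval reached a 2-fold change or more in at least 1 direction.

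Whether the genes responded otherwise in muscle than elsewhere was tested directly, as the log2 change in muscle minus its mean over the 4 other tissues, in 1 fit of the 42 libraries. At an adjusted p under 0.05 by edgeR, 0 of the 150 genes passed, with 0% of 20892 genes passing, and the smallest adjusted p among the 150 was 0.401. At an unadjusted p under 0.05, 3 were higher and 6 lower in this difference, or 2 and 4%, beside 2.81 and 4.31% of all genes. The 3 higher were ENSNFUG00015004339, ENSNFUG00015005455 and ENSNFUG00015003365, of which the first and the last were named after their values were seen. The smallest p was that of ENSNFUG00015024831, the kidney-high gene, with a difference of -2.76 (SE 0.805, adjusted p 0.401 by edgeR). Over 14 alternative fits it ran from -3.41 to -0.42, with adjusted p from 0.137 to 1. The edgeR fit takes the libraries of a fish as independent, and limma-voom with the correlation within fish estimated gave a difference of -0.61 (adjusted p 0.998). In muscle it stood at 0.655, 0.517, 0.262, 0.225 and 0.8 CPM with alendronate and at 1.43, 0.765, 10.9 and 0 CPM with placebo, where the 0 allows up to 0.145 CPM (3 counts). With all libraries of placebo fish 3 left out, the difference was -0.42, and no fit left out its muscle alone. The muscle of that fish held the highest of these values. In that library kidney-enriched genes took 0.0248% of counts, against 0.0057 to 0.0191% in the other 8 muscle libraries, and their part in the value was not tested.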

How the data were processed

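The authors deposited whole-number read counts per Ensembl gene for 42 libraries, with no normalization, per the file headers and values. Tools named in the submitters' processing notes include the aligner STAR 2.7.10b, the trimmer Trim Galore 0.6.10 and SAMtools 1.13. No source used here gives the counting program, its strand setting, the build or the annotation, so overlapping or antisense genes and near-identical copies are uncertain. The table held 0 rows naming no gene and 0 columns of no sample. Within groups, 72 pairs of libraries differed by at least 28.6 times the sampling variance per gene, so all were counted as separate.

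The 150 genes, the gene lists and the tests were chosen with earlier results of these data known. The lists (cell type markers and pathways) could not be matched to any ID and none was tested. Levels used edgeR 4.0.16 TMM factors over all libraries in R 4.3.3. Factors ran from 1.08 to 1.51 in heart, 0.364 to 0.687 in liver, 1.44 to 1.84 in spleen, 1.6 to 1.91 in kidney and 0.622 to 0.791 in muscle, so liver and muscle levels are raised relative to their share of counts. Fold differences of a library from the median of the other libraries of its tissue used CPM plus 0.1.

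Treatment was tested per tissue with filterByExpr, TMM and edgeR's robust quasi-likelihood F test, two-sided, adjusted by Benjamini-Hochberg at 0.05; the muscle contrast was tested in 1 fit over all libraries. Alternatives used DESeq2 1.42.0, limma-voom (limma 3.58.1), RLE scaling, library totals, no filter, a replicate block, single fits over all libraries, left-out libraries and other limits for the choice of genes. Equal replicate numbers in the 2 arms mark different fish. Named genes were the 4 largest ratios, the 2 just inside and outside the limit, the 3 with the highest minimum CPM, the 1 most tissue-high per organ, the most even, the 2 highest in muscle and those with the smallest p in each direction; others are marked as named after their values were seen.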

Additional observations from a re-analysis of the deposited data

Results flagged for a closer look

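Within arms of 4 or 5 fish, 17 of 77 sets of values had 1 fish far from the others by Dixon's criterion at 95%. Chance meets it in about 1 in 20 sets, but that share is no measure for these. Of the sets, 8 were of ENSNFUG00015002962, picked for its high values in certain fish, and they gave 7 of the 17. The other 69 sets gave 10, and many share fish and genes. The share of counts from the 150 genes was 0.22% in the muscle of alendronate fish 1, where the next alendronate muscle had 0.0872%. In the kidney of the same fish it was 3.3%, where the next had 1.51%.

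Single-gene values of alendronate fish 1 and placebo fish 4 were among these. ENSNFUG00015002592 was at 917 CPM in the muscle of alendronate fish 1 (next 124 CPM) and at 872 CPM in the heart of placebo fish 4 (next 250 CPM). ENSNFUG00015004212 was at 18.1 CPM in the muscle of alendronate fish 1 (next 3.15 CPM), and ENSNFUG00015018409 at 30.1 CPM in the muscle of placebo fish 4 (next 5.44 CPM). ENSNFUG00015002962, chosen because these fish were high, stood apart in 4 tissues of alendronate fish 1, at 218 CPM in heart, 381 CPM in liver, 2790 CPM in kidney and 103 CPM in muscle. It also stood apart in 3 tissues of placebo fish 4, at 240 CPM in heart, 120 CPM in liver and 11.9 CPM in muscle. In spleen it did not, since alendronate fish 3 was as high as alendronate fish 1, and 3 placebo spleens are too few for the criterion.

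The remaining values came from other fish, all in muscle. ENSNFUG00015011184, the liver-high gene, was at 73.2 CPM in alendronate fish 3 (next 21.5 CPM), and the kidney-high ENSNFUG00015024831 was at 10.9 CPM in placebo fish 3. ENSNFUG00015022994 was at 1.6 CPM in alendronate fish 5 (next 0.631 CPM). In the same fish ENSNFUG00015022718 was low, at 0.213 CPM (next 0.403 CPM).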

How the results depend on the processing

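In every alternative fit that tested them, 0 of the 150 genes passed an adjusted p of 0.05 in any tissue and in the muscle contrast. At an unadjusted p under 0.05, leaving out single libraries gave 3 to 10 genes in heart and 2 to 16 in liver. It gave 0 to 4 in spleen, 0 to 3 in kidney and 4 to 13 in muscle. In the contrast, leaving out all libraries of 1 fish at a time gave 3 to 15. These are 2 to 6.67%, 1.33 to 10.7%, 0 to 2.67%, 0 to 2%, 2.74 to 8.9% and 2 to 10% of the genes, against 1.47 to 5.15%, 1.65 to 12.3%, 1.17 to 2.61%, 0.809 to 5.17%, 5.01 to 9.19% and 5.09 to 8.45% of all genes. The 16 in liver came without placebo fish 4, where 12.3% of all genes passed, and the 10 in heart without the same fish, where 3.17% did. Over those fits the median log2 change ran from -0.096 to 0.058 in heart, -0.068 to 0.046 in liver, -0.15 to 0.22 in spleen, 0.019 to 0.31 in kidney and -0.17 to 0.1 in muscle. The mean share of counts ran from 1.14 to 1.25%, 1.45 to 1.52%, 2.38 to 2.78%, 1.4 to 1.65% and 0.0794 to 0.0989% in the same order. Library totals without scaling factors gave a liver median of 0.25, where the median over all genes was 0.27, and a heart median of -0.11, where it was -0.11 over all genes, so the genes moved with the rest. Of the 150 genes, 61 were chosen again with library totals only and 90 with a lowest level of 1 CPM, against 131 to 141 with 1 fish left out. With a lowest level of 10 CPM 112 were chosen again, with an offset of 1 CPM 125 and under RLE scaling 138. Choosing in 1 arm gave 121 of them in alendronate libraries and 117 in placebo libraries. The replicate block left 0 of the genes past an adjusted p of 0.05 in each tissue and 6, 13, 5, 2 and 15 at an unadjusted p under 0.05 in muscle, heart, liver, spleen and kidney. These are 4.11, 8.67, 3.33, 1.33 and 10% of the genes, against 5.27, 5.83, 2.84, 1.92 and 8.15% of all genes, and 3 genes of the whole table passed the adjusted threshold in kidney. Deviations of same-numbered fish in the 2 arms correlated between -0.321 and 0.422. Differently numbered fish were not set beside them, so a link by number was not tested. Few counts in muscle and 2 placebo kidneys limit what could be detected.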
